A study of Rattus norvegicus with 9 samples.

Results

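The potassium channel genes of the rat hippocampus are described here in 3 groups of arrays: hippocampal RNA after 1 h of ketone bodies, after 6 h of ketone bodies, and from controls in artificial cerebrospinal fluid only. Members were the probe sets whose single gene symbol begins with Kcn, one or more further letters and a number. Kcnj8 and Kcnj11, the pore subunits of ATP-sensitive channels, were left out with their 4 probe sets. The rule uses names and no measured value, and it gave 122 probe sets of 73 genes among 31042 probe sets of the array. Each probe set reads a stretch of 1 gene's transcript, and some genes have several.

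Potassium channels let potassium leave or enter the cell, and so hold the resting potential, end the action potential and set how readily a neuron fires again. Voltage-gated channels are tetramers of alpha subunits. Those of the Kcna family act mainly in axons and those of the Kcnd family carry the fast A-type current of dendrites, and small auxiliary proteins change how both reach the membrane and inactivate. Calcium- or sodium-activated channels follow spiking, KCNQ channels carry the M current that restrains repeated firing, and inward rectifiers and two-pore-domain channels pass current near rest in neurons and glia.

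The study measured RNA on 9 rat expression arrays of the Affymetrix type, 3 in each group. The labels give exposures of 1 h and 6 h for the ketone groups and no time for the control group. Whether replicates are separate animals or cultures is not stated, so p-values measure only the spread between these arrays, which may be technical. The number of arrays limits the precision. The labels name neurons of the hippocampus as the source, but markers of other cells were well above the filter on low values, among them the astrocyte gene Gfap (11.08 ± 0.09, 11.02 ± 0.20 and 10.96 ± 0.17 after 1 h, after 6 h and in controls; mean ± SD of log2(signal + 16), n = 3 each) and the myelin gene Mbp (12.63 ± 0.04, 12.60 ± 0.03 and 12.62 ± 0.06 on 1 of its probe sets). Levels below are on that log2 scale after quantile normalization, and differences between groups are differences of its means.

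A probe set was tested where its mean over all 9 arrays reached 5.21, a signal of about 21.0. This left 67 member probe sets of 46 genes, and 55 member probe sets lay under the level, with means of 4.13 to 5.20. Nearest the level were Kcnq5 (1391314_at, 5.23) and Kcnj6 (1370704_at, 5.24) above it, and Kcng3 (5.20) and Kcnj3 (1388292_at, 5.18) under it. No tested probe set was left for 27 genes. These were the voltage-gated alpha subunits Kcna3, Kcnb2, Kcng3, Kcns2 and Kcnv2, the EAG, ERG and ELK family genes Kcnh4, Kcnh5, Kcnh6, Kcnh7 and Kcnh8, Kcnq1, the auxiliary subunits Kcne1 and Kcne3, and Kcnmb1 and Kcnn4 of the calcium-activated channels. They also included the inward rectifiers Kcnj1, Kcnj2, Kcnj5, Kcnj10, Kcnj12, Kcnj13 and Kcnj15, and the leak channels Kcnk5, Kcnk6, Kcnk9, Kcnk10 and Kcnk15. Kcnj10, the main inward rectifier of astrocytes, was therefore not compared, nor was Kcnk9, an acid-sensitive leak channel. Of the classes, the voltage-gated alpha subunits kept 21 probe sets of 15 genes, the EAG, ERG and ELK genes 3 of 3, KCNQ 3 of 2, the auxiliary subunits 15 of 9, the calcium- or sodium-activated channels 8 of 5, the inward rectifiers 11 of 6 and the two-pore-domain leak channels 6 of 6.

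Each comparison asked which channel transcripts differed between 2 groups. No member passed limma's moderated test at an adjusted p of 0.05 in any of the 3 comparisons, and the lowest adjusted p was 0.26. The values below are therefore descriptions of 9 arrays, and any single difference may lie within their spread. The comparisons of 1 h and of 6 h with control share the same 3 control arrays, so a control value that was high or low by itself enters both.

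**Figure D1:**
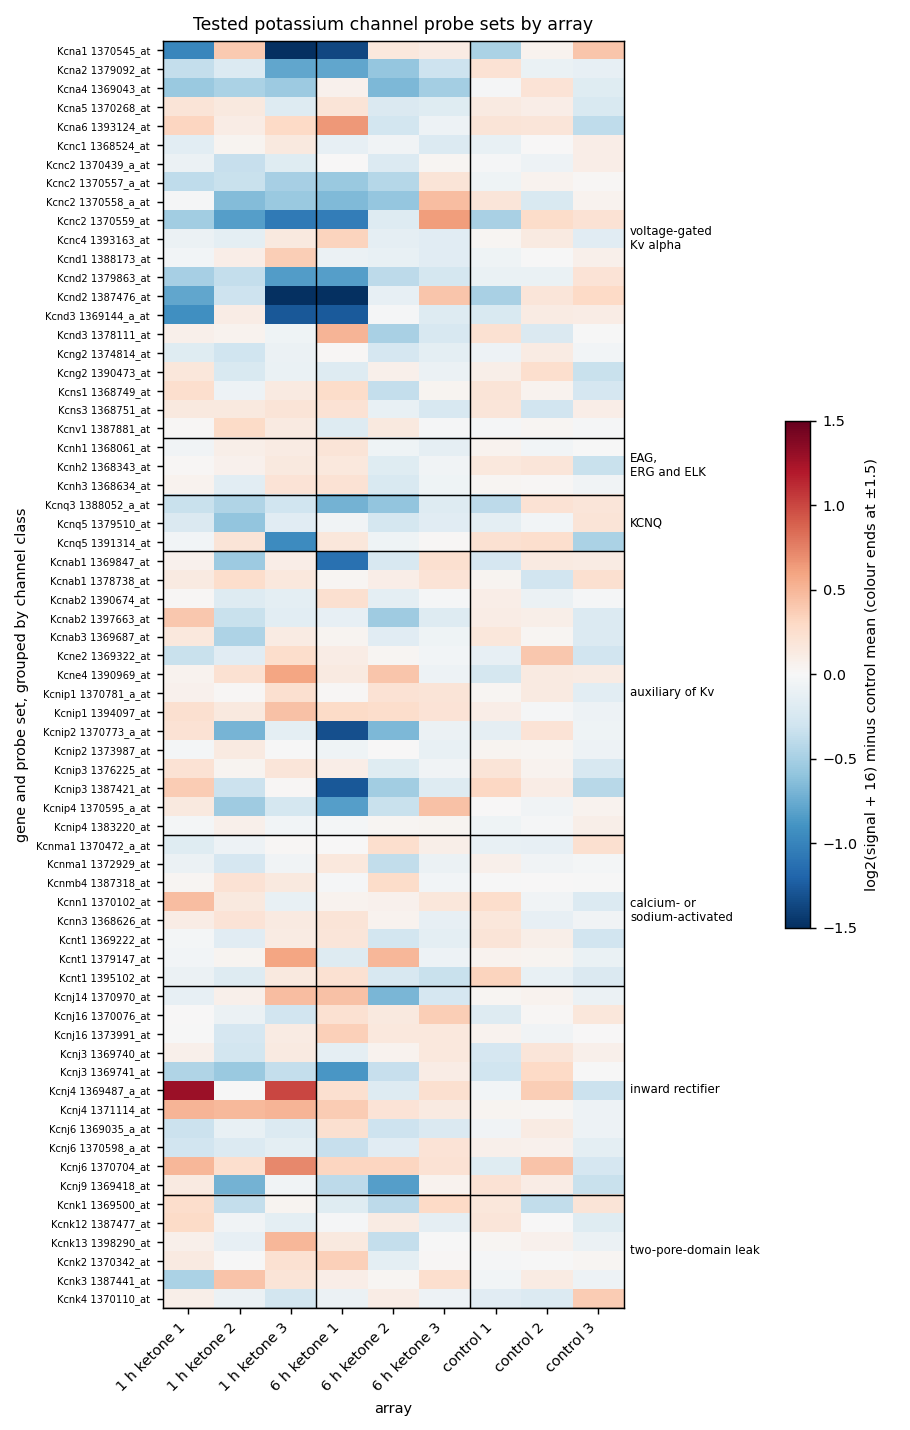
Level of each of the 67 tested potassium channel probe sets on each of the 9 arrays, as log2(signal + 16) minus the mean of the 3 control arrays; rows are probe sets grouped by channel class, columns are arrays (1 h, 6 h, control), and the colour scale ends at 1.5 in either direction. Among the strongest blue cells are those on 1 h array 3 and 6 h array 1 in Kcna1, Kcnd2 and Kcnd3, and Kcnj4 is red on all 3 of the 1 h arrays in 1 of its probe sets.

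After 1 h of ketone bodies the channel transcripts had a median difference near 0, with values of both signs. The inward rectifier gene Kcnj4 had the smallest p, with a difference of 0.50 ± 0.11 (SE, n = 3 arrays per group here and below) on the log2 scale, a ratio of 1.42. The dendritic A-type channel gene Kcnd2 (-0.56 ± 0.17) and the axonal channel genes Kcna4 (-0.52 ± 0.18) and Kcna2 (-0.45 ± 0.17) had values below control. The median difference of the 67 probe sets was -0.02, against 0.03 for all 18625 tested, and the range was -0.96 to 0.76.

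At 1 h, 0 members passed the adjusted threshold by limma's test, where 0.0322% of all tested probe sets did. At an unadjusted p of 0.05, 4 members (5.97%) were higher and 4 (5.97%) lower, beside 6.7% and 4.64% of all tested, so the share was near that of the whole array. All 3 arrays of 1 h lay above all 3 controls in 3 members (4.48%; 13% of all tested) and below them in 11 (16.4%; 8.25% of all tested). The unadjusted counts varied with the arrays kept, and so did the share of all tested, given here in brackets. Higher members numbered 1 without 1 h array 1 (5.32%) or 1 h array 3 (4.32%). They numbered 2 without control 1 (6.21%) or control 3 (4.03%). Lower members numbered 2 without control 2 (3.82%), 9 without 6 h array 1 (7%) and 7 without 6 h array 3 (5.23%).

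After 6 h the differences lay below 0 in 44 of 67 probe sets (65.7%; 46.2% of all tested). Their median was -0.06, against 0.02 for all tested, and their range -0.69 to 0.29. When arrays were only centred on their medians, 35 of the 67 lay below 0. That centring also moved the whole array up, with a median of -0.01 for members and 0.07 for all tested. Kcna2 (-0.56 ± 0.17), Kcnd2 (-0.49 ± 0.17) and the M-current gene Kcnq3 (-0.50 ± 0.20) had the lowest p below control, and Kcnj4 (0.24 ± 0.11) and the auxiliary gene Kcnip1 (0.25 ± 0.11) above it. At 1 h, 36 of the 67 probe sets (53.7%) had lain below control, beside 44.7% of all tested.

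By limma's test 0 members passed at 6 h, with 0.0268% of all tested passing and a lowest adjusted p among members of 0.985. At an unadjusted p of 0.05, 2 members (2.99%; 2.8% of all tested) were higher and 5 (7.46%; 1.46% of all tested) lower, so the lower share stood above that of the array. The count of 5 varied with the arrays kept, and so did the share of all tested. The 6 h arrays lay wholly above the controls in 3 members (4.48%; 6.05% of all tested) and wholly below in 3 (4.48%; 3.12% of all tested). The 5 lower members numbered 3 without control 1 (1.22% of all tested) or 1 h array 3 (1.42%). They numbered 2 without control 2 (1.05% of all tested), control 3 (0.999%) or 6 h array 2 (0.956%). Without 6 h array 3 they numbered 10, when the share of all tested was 4.65%. Between 66 and 68 members were tested in these fits. Of the 2 higher members, 0 or 1 was left when any single array was removed.

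The promoters of 4 genes are shown, chosen after the values were seen, because each of these genes had a probe set whose 3 arrays at either time all lay on 1 side of the controls: Kcna2 and Kcnd2 below them, Kcnip1 and Kcnj4 above. Both times are read against the same 3 controls, so this is no second measurement of the control level. Of all tested probe sets 3.23% lay wholly above the controls at both times (2.99% of members) and 1.47% wholly below (2.99% of members), so the share of members above was near that of the array. Each is the 250 bases before the annotated start in RefSeq on build GRCr8, written 5′ to 3′ along the gene, and capitals mark a GC box (GGGCGG or its reverse complement CCGCCC) or a cAMP response element half-site (TGACG or CGTCA).
Kcna2, chr2:197393280-197393529, plus strand: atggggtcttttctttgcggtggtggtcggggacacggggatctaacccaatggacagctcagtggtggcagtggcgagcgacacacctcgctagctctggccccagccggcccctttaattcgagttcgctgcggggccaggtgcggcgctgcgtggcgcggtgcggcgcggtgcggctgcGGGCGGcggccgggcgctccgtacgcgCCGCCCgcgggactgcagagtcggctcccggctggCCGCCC
Kcnd2, chr4:50742235-50742484, plus strand: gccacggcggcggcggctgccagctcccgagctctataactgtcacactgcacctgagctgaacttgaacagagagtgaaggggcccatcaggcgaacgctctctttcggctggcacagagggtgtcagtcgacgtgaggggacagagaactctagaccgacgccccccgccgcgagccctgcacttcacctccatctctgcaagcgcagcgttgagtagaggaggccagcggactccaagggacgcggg
Kcnip1, chr10:19093026-19093275, minus strand: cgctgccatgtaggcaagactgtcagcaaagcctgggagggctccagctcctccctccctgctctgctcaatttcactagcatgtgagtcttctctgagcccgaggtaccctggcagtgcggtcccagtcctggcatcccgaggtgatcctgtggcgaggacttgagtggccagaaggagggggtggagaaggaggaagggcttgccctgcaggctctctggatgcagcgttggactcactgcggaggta
Kcnj4, chr7:112954548-112954797, minus strand: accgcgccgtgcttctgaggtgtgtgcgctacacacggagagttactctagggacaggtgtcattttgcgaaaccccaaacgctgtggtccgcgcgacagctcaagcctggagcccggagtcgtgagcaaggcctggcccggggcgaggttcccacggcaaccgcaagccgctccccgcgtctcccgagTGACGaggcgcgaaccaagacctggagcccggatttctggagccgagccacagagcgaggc

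The Kcna2 promoter holds 3 GC boxes and has a GC content of 72.4%. The Kcnj4 promoter holds 1 half-site, at a GC content of 65.6%, and the Kcnd2 (64%) and Kcnip1 (61.2%) windows hold none of the motifs searched. TATAAA or TTTATA, also searched, is in none of the 4 windows. Both strands were searched, and a window counts once however many matches it holds; a half-site and its reverse complement share letters in the full palindromic element, and so can TATAAA and TTTATA. Of the 73 member genes, 57 were found in the promoter table. A GC box was in 54.4% of their windows, against 52.4% for the 13193 genes of the array that were found and 30.5% for all 33469 windows of this length. The half-site was in 21.1%, 24.9% and 18.2% of the same 3 sets, and the TATA letters in 3.51%, 8.04% and 12.9%. Such matches describe letters in a window and do not show that a factor binds there.

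**Figure D2:**
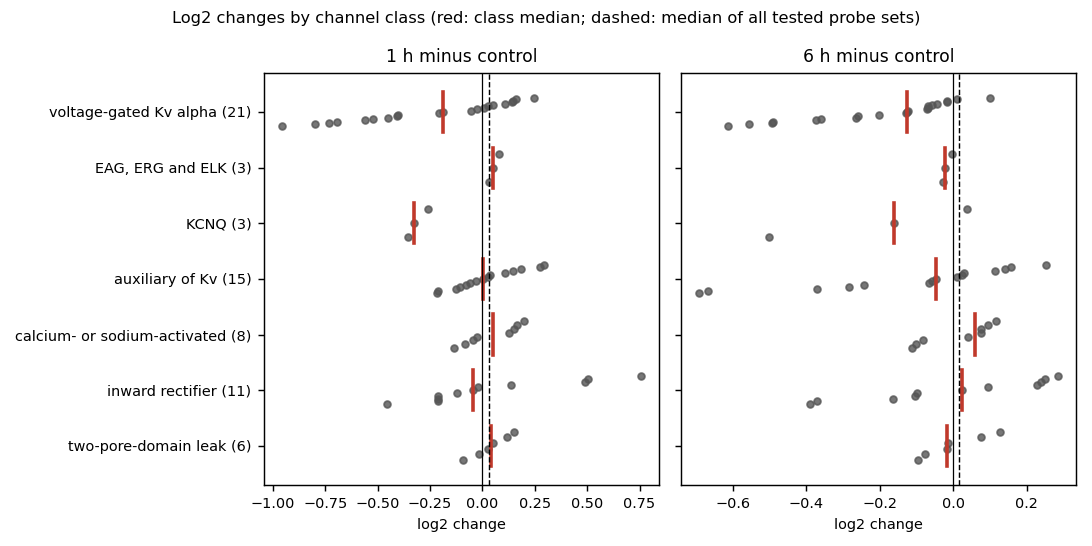
Log2 difference of each tested probe set by channel class (the number of probe sets in brackets), 1 h minus control on the left and 6 h minus control on the right; red bars are class medians and the dashed line is the median of all tested probe sets. The class medians furthest below 0 are those of KCNQ and the voltage-gated alpha subunits, at -0.33 and -0.19 after 1 h and -0.16 and -0.12 after 6 h.

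The voltage-gated alpha subunits lay mainly below control, and made up 13 of the 36 member probe sets below it after 1 h and 19 of the 44 after 6 h. Of their 21 probe sets, 13 were below control after 1 h (median -0.19) and 19 after 6 h (median -0.12), and with arrays centred on their medians these counts were 12 and 15. That centring moved the class medians to -0.07 and -0.08, with those of all tested probe sets at 0.10 and 0.07. Without 1 h array 3 and 6 h array 1 together the 1 h median was -0.12, with 16 of 23 tested probe sets below control. Without 1 h array 3 alone that median was -0.22, and without 6 h array 1 alone -0.15. When any single array was left out, 15 to 20 of the class's 21 or 22 tested probe sets were below control after 6 h. All 3 ketone arrays lay below all controls in 7 of the 21 after 1 h and in 3 after 6 h, where 8.25% and 3.12% of all tested probe sets did. A count of probe sets below 0 has no replicate error of its own here, because the same 9 arrays give every member.

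Kcna2 encodes an axonal delayed-rectifier subunit that raises the threshold for firing. It had 9.64, 9.80 and 9.23 on the 1 h arrays and 9.23, 9.42 and 9.70 on the 6 h arrays, against 10.23, 9.90 and 9.89 on the controls. Every ketone array lay below the lowest control. The difference was -0.45 ± 0.17 after 1 h (adjusted p = 0.392 by limma) and -0.56 ± 0.17 after 6 h (adjusted p = 0.985 by limma). Without 1 h array 3 the 1 h difference was -0.29, and with the 3'/5' ratio of the arrays as a covariate the differences were -0.33 and -0.44.

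Kcna4, an A-type subunit of axons and terminals, read 6.97, 7.05 and 6.98 after 1 h and 7.59, 6.86 and 7.02 after 6 h, against 7.50, 7.73 and 7.35 in controls. The 1 h arrays were close together and all under the controls, whereas 6 h array 1 lay within the control range. The 6 h difference of -0.37 ± 0.18 was -0.59 without 6 h array 1 and -0.23 without 6 h array 2. Kcna1, which forms mixed channels with Kcna2, spread widely, with 7.28, 8.65 and 6.64 after 1 h and 6.89, 8.41 and 8.38 after 6 h, against 7.78, 8.30 and 8.67 in controls. Its groups overlapped. Of the other Kcna genes tested, Kcna5 had differences of 0.05 ± 0.18 after 1 h and -0.07 ± 0.18 after 6 h, and Kcna6 had 0.24 ± 0.23 and 0.10 ± 0.23.

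Kcnd2, the main A-type pore subunit of pyramidal cell dendrites, was measured by a pair of probe sets. On the first, 1379863_at, it had 8.96, 9.10 and 8.62 after 1 h and 8.63, 9.07 and 9.19 after 6 h, against 9.36, 9.35 and 9.66 in controls. All 6 ketone arrays were below the lowest control, with differences of -0.56 ± 0.17 and -0.49 ± 0.17. The 6 h difference was -0.32 without 6 h array 1, and the covariate for the 3'/5' ratio gave -0.43 after 1 h and -0.36 after 6 h. On the second, 1387476_at, it had 7.35, 7.82 and 6.33 after 1 h and 6.00, 8.0 and 8.54 after 6 h, against 7.64, 8.31 and 8.42 in controls. There the groups overlapped, and the differences of -0.96 ± 0.59 and -0.61 ± 0.59 carried larger errors than on the first probe set. Kcnd3, a related A-type subunit, was at -0.69 ± 0.38 after 1 h on 1369144_a_at and at 0.02 ± 0.23 on 1378111_at, so its probe sets did not share a sign at that time. Kcnd1 was at 0.14 ± 0.13 after 1 h and -0.12 ± 0.13 after 6 h.

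The Kcnc genes encode channels that close quickly and allow fast firing, above all in interneurons. Kcnc2 had 4 tested probe sets, and all 4 were below 0 at both times, from -0.80 to -0.21 after 1 h and from -0.26 to -0.06 after 6 h. On the probe set with the smallest error, 1370439_a_at, it had 9.65, 9.39 and 9.55 after 1 h and 9.74, 9.54 and 9.77 after 6 h, against 9.72, 9.66 and 9.84 in controls. The 1 h arrays lay just under the controls and the 6 h arrays overlapped them. Kcnc1 was within 0.01 ± 0.11 of control after 1 h and at -0.13 ± 0.11 after 6 h, and Kcnc4 at -0.03 ± 0.16 and 0.01 ± 0.16. The silent subunits, which form no channel alone and modify others, lay close to control, with differences from -0.19 (Kcng2) to 0.16 (Kcns3) after 1 h and from -0.12 (Kcng2) to -0.02 (Kcns1 and Kcnv1) after 6 h.

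**Figure D3:**
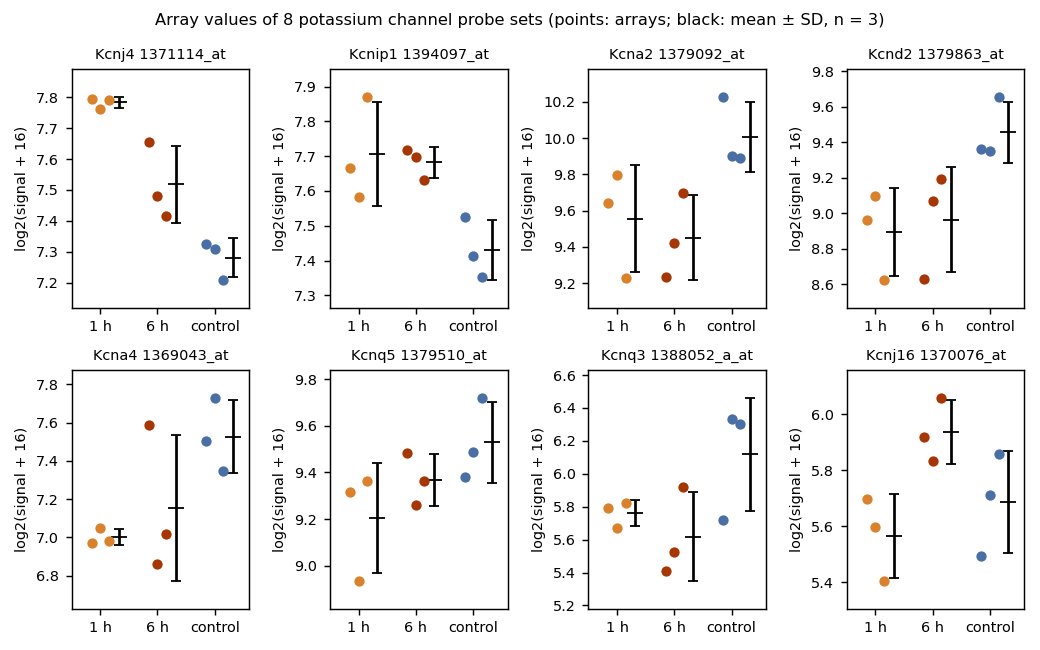
Levels of 8 potassium channel probe sets on each array as log2(signal + 16); points are arrays (1 h, 6 h, control) and black bars the mean ± SD of 3 arrays, with a separate vertical scale in each panel. Kcna2 and Kcnd2 lie below all controls on all 6 ketone arrays, and Kcnj4 and Kcnip1 above them.

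The EAG, ERG and ELK channels, delayed rectifiers named after fly genes, had small differences. Kcnh1 (0.05 ± 0.12), Kcnh2 (0.08 ± 0.17) and Kcnh3 (0.03 ± 0.14) lay within 1 standard error of control after 1 h, and so did all 3 after 6 h, with Kcnh3 furthest at -0.03 ± 0.14. The KCNQ class lay below control in 3 of 3 probe sets after 1 h and in 2 of 3 after 6 h. Kcnq5, a neuronal M-current subunit, read 9.32, 8.93 and 9.36 after 1 h and 9.48, 9.26 and 9.36 after 6 h, against 9.38, 9.49 and 9.72 in controls on 1379510_at. Its 1 h arrays lay under the lowest control by a small margin, and the difference of -0.33 ± 0.14 was -0.19 without 1 h array 2. On 1391314_at, near the filter level, Kcnq5 was at -0.26 ± 0.29 after 1 h and 0.04 ± 0.29 after 6 h. Kcnq3, its partner subunit, had 5.79, 5.67 and 5.82 after 1 h and 5.41, 5.52 and 5.92 after 6 h, against 5.72, 6.33 and 6.30 in controls. Control 1 lay among the ketone arrays, so the groups overlapped, and the 6 h difference was -0.50 ± 0.20 (adjusted p = 0.987 by limma). That difference was -0.36 with the 3'/5' covariate, -0.70 without control 1 and -0.39 without 6 h array 1. With pseudocounts of 1 and 64 it was -0.68 and -0.28.

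The auxiliary subunits of voltage-gated channels had a median of 0.00 after 1 h and -0.05 after 6 h, with 7 and 8 of 15 probe sets below 0. Kcnip1, a calcium-binding protein that brings Kcnd channels to the membrane and is typical of interneurons, read 7.67, 7.58 and 7.87 after 1 h and 7.72, 7.70 and 7.63 after 6 h, against 7.52, 7.41 and 7.35 in controls on 1394097_at. All 6 ketone arrays were above the highest control. The differences were 0.28 ± 0.11 (adjusted p = 0.415 by limma) and 0.25 ± 0.11 (adjusted p = 0.987 by limma), and its other tested probe set gave 0.11 ± 0.14 and 0.14 ± 0.14, the second being 0.06 without control 3. The summed signal of interneuron markers, as log2, was also above controls, at 12.32 to 12.42 after 1 h and 12.32 to 12.35 after 6 h, against 12.15 to 12.30, and its part in the Kcnip1 values was not tested.

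Kcnip2, the partner of Kcnd2 in pyramidal cells, had its 2 tested probe sets at different differences after 6 h. On 1370773_a_at it read 7.75, 6.83 and 7.39 after 1 h and 6.22, 6.86 and 7.45 after 6 h, against 7.39, 7.74 and 7.47 in controls. The 6 h value of -0.69 ± 0.30 was -0.37 without 6 h array 1, -1.0 without 6 h array 3 and -0.28 with the 3'/5' covariate, and 1373987_at gave -0.06 ± 0.09. Kcnip3, also known as a calcium-sensing transcription repressor, read 6.99, 6.28 and 6.62 after 1 h and 5.33, 6.08 and 6.41 after 6 h, against 6.91, 6.71 and 6.19 in controls on 1387421_at. Here too 6 h array 1 was the lowest of the 9, and the 6 h difference of -0.67 ± 0.29 was -0.36 without it and -0.31 with the covariate. The other Kcnip3 probe set was at -0.05 ± 0.13. Kcnip4 was at 0.00 ± 0.08 after 1 h and 0.01 ± 0.08 after 6 h on 1383220_at, and at -0.22 ± 0.28 and -0.24 ± 0.28 on 1370595_a_at.

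Among the cytoplasmic beta subunits of Kcna channels, Kcnab1, which gives them fast inactivation, was at 0.18 ± 0.12 after 1 h and 0.11 ± 0.12 after 6 h on 1378738_at and at -0.13 ± 0.31 and -0.37 ± 0.31 on 1369847_at. Kcnab2 was at -0.11 ± 0.11 and 0.02 ± 0.11 on 1390674_at and at -0.03 ± 0.20 and -0.28 ± 0.20 on 1397663_at. Kcnab3 was at -0.06 ± 0.19 and -0.07 ± 0.19. The 1 h value of Kcnab1 on 1378738_at was 0.04 without control 2 and 0.31 without control 3, and its 6 h value -0.03 and 0.24. The single-pass subunit gene Kcne4 had 0.29 ± 0.19 after 1 h, which was 0.14 without 1 h array 3, and 0.16 ± 0.19 after 6 h, which was 0.03 without 6 h array 2. Each of these groups overlapped its controls.

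The calcium- or sodium-activated channels were balanced, with 4 of 8 probe sets below 0 after 1 h and 3 of 8 after 6 h, and differences from -0.13 to 0.20 and from -0.11 to 0.12. Kcnma1, the pore of the large-conductance calcium-activated channel, was at -0.13 ± 0.13 and -0.10 ± 0.13 on 1372929_at. On 1370472_a_at it was at -0.08 ± 0.15 and 0.12 ± 0.15, so the signs differed after 6 h. Its neuronal beta subunit gene Kcnmb4 had 9.30, 9.49 and 9.41 after 1 h and 9.26, 9.55 and 9.23 after 6 h, against 9.27, 9.28 and 9.27 in controls. The 1 h arrays lay above the closely spaced controls, at 0.13 ± 0.10, or 0.08 without 1 h array 2. The small-conductance channel genes Kcnn1 (0.16 ± 0.18 and 0.09 ± 0.18) and Kcnn3 (0.15 ± 0.15 and 0.04 ± 0.15) stayed within about 1 standard error of control, and so did the sodium-activated channel gene Kcnt1 on its 3 probe sets.

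The inward rectifiers had both the highest single difference and genes below control, and a median of -0.05 after 1 h and 0.02 after 6 h. Kcnj4 encodes a strong inward rectifier of forebrain neurons. On 1371114_at it had 7.80, 7.76 and 7.79 after 1 h and 7.66, 7.48 and 7.42 after 6 h, against 7.32, 7.31 and 7.21 in controls. The 3 groups formed separate steps with no overlap, highest after 1 h. The 1 h difference of 0.50 ± 0.11 had an unadjusted p of 0.000799 and an adjusted p of 0.26 by limma, and adjusted p-values of 0.074 to 0.773 over the alternative settings. It ranged from 0.47 to 0.53 when 1 array was left out and was 0.45 with the 3'/5' covariate. The second Kcnj4 probe set, 1369487_a_at, had 7.30, 6.00 and 7.01 after 1 h and 6.26, 5.81 and 6.25 after 6 h, against 5.97, 6.38 and 5.68 in controls. It had the same sign at 0.76 ± 0.31 after 1 h, but 1 h array 2 lay within the control range, and the value was 0.49 without 1 h array 1 and 1.14 without 1 h array 2.

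Kcnj3, Kcnj6 and Kcnj9 encode the G-protein-gated inward rectifiers that answer inhibitory transmitters. Kcnj3 on 1369741_at read 6.30, 6.19 and 6.39 after 1 h and 5.88, 6.40 and 6.85 after 6 h, against 6.45, 7.05 and 6.74 in controls. The 1 h arrays lay under the controls at -0.46 ± 0.24, which was -0.20 with the 3'/5' covariate, and the other probe set gave -0.02 ± 0.17. Kcnj6 disagreed among its 3 probe sets, at 0.49 ± 0.20 on 1370704_at, which lay near the filter level, and at -0.21 ± 0.15 and -0.21 ± 0.16 on the others. Kcnj9 was at -0.21 ± 0.27 after 1 h and -0.39 ± 0.27 after 6 h, and the 6 h value was -0.17 without 6 h array 2 or with the 3'/5' covariate and -0.61 without 6 h array 3. Kcnj14, another strong rectifier, was at 0.14 ± 0.26 and -0.16 ± 0.26.

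The two-pore-domain leak channels had differences from -0.09 (Kcnk4) to 0.15 (Kcnk13) after 1 h and from -0.10 (Kcnk1) to 0.13 (Kcnk3) after 6 h. Kcnk2, a leak channel opened by stretch and lipids, had 8.48, 8.34 and 8.57 after 1 h and 8.70, 8.20 and 8.36 after 6 h, against 8.32, 8.34 and 8.37 in controls. Its control arrays lay within a few hundredths of each other and the ketone arrays on either side of them.

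When 6 h was set against 1 h, the smallest p above 0 was that of Kcnj16, an inward rectifier of astrocytes and other glia that pairs with Kcnj10. On 1370076_at it had 5.92, 5.83 and 6.06 after 6 h, against 5.70, 5.60 and 5.40 after 1 h, with controls at 5.49, 5.71 and 5.86. The 6 h and 1 h arrays did not overlap, at a difference of 0.37 ± 0.15, while the controls spanned the gap. Its second probe set, 1373991_at, read 6.58, 6.39 and 6.39 after 6 h, against 6.22, 5.97 and 6.34 after 1 h, also with no overlap, at 0.27 ± 0.14. That value was 0.17 without 1 h array 2. Kcnj4 on 1371114_at lay lower at 6 h than at 1 h, at -0.27 ± 0.11, and Kcnip3 on 1387421_at at -0.69 ± 0.29, which was -0.38 without 6 h array 1. Kcnd1, an A-type subunit related to Kcnd2, had 6 h arrays below the 1 h arrays, at -0.26 ± 0.13, or -0.15 without 1 h array 3.

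Between 6 h and 1 h, 0 members were past the adjusted threshold by limma's test, beside 0% of all tested, and the lowest adjusted p was 0.997. The median difference of the members was -0.05, against -0.01 for all tested, with 40 of 67 (59.7%; 53% of all tested) below 0 and a range of -0.69 to 0.60. At an unadjusted p of 0.05, 1 member (1.49%; 1.32% of all tested) was higher and 2 (2.99%; 1.41% of all tested) were lower at 6 h. The arrays did not overlap in 2 members above (2.99%; 3.57% of all tested) and 2 below (2.99%; 4.04% of all tested). These counts varied with the arrays kept, and so did the share of all tested, given here in brackets. The 2 lower members were 1 without control 2 (1.23%), 1 h array 1 (1.16%) or 6 h array 2 (2.12%). They were 0 without 1 h array 3 (0.934%) and 5 without 6 h array 1 (4.21%). The 1 higher member was 0 without 1 h array 2 (2.17%) or 6 h array 3 (1.21%) and 2 without 6 h array 1 (4.22%).

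**Figure D4:**
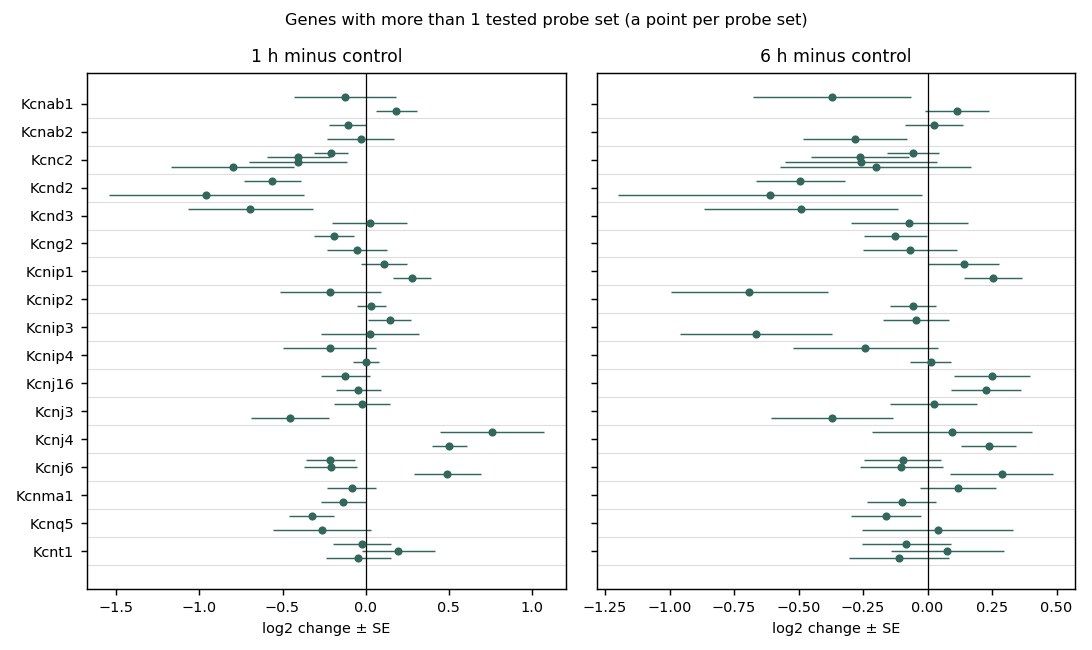
Log2 difference ± SE of each tested probe set for the 17 genes with more than 1, 1 h minus control on the left and 6 h minus control on the right; a point is a probe set. The 4 Kcnc2 and 2 Kcnd2 probe sets lie below 0 and the 2 Kcnj4 and 2 Kcnip1 probe sets above it at both times, whereas those of Kcnj6 and Kcnt1 fall on both sides.

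Probe sets of the same gene can be compared within each array. Of the 17 genes with more than 1 tested probe set, 11 had a single sign across them after 1 h and 9 after 6 h, and 11 in the comparison of 6 h with 1 h. Most of these genes had a pair of probe sets, which can share a sign without a real difference. The same count was not made for other genes of the array, so it is no measure of agreement. Kcnc2, Kcnd2 and Kcng2 were below control in every tested probe set at both times, and Kcnip1 and Kcnj4 above it. Sizes differed within a gene, as for Kcnj3 after 1 h (-0.46 and -0.02) and Kcnip3 after 6 h (-0.67 and -0.05). The cause of such gaps was not tested.

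**Figure D5:**
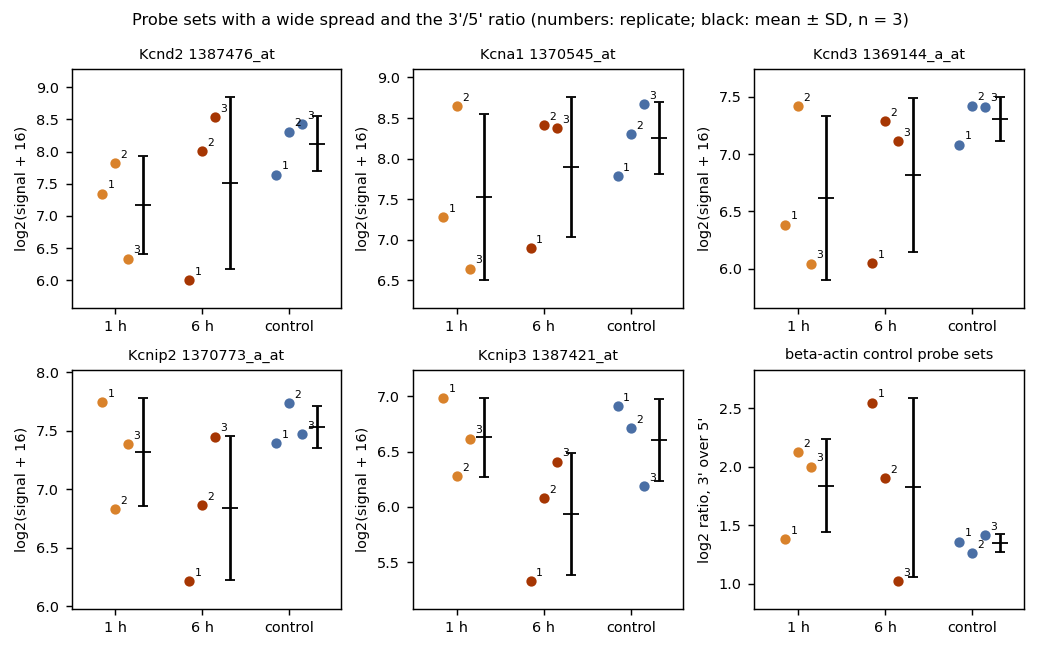
Levels on each array of 5 potassium channel probe sets with a wide spread, as log2(signal + 16), and the beta-actin ratio of 3' over 5' signal on the log2 scale (last panel); numbers give the replicate and black bars the mean ± SD of 3 arrays. In Kcnd2 (1387476_at), Kcna1 and Kcnd3, 1 h array 3 and 6 h array 1 are the lowest, and in Kcnip2 and Kcnip3 6 h array 1 is.

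The members varied among arrays of the same group somewhat more than the array as a whole, with a median pooled SD of 0.225 against 0.185 for all tested. The widest were Kcnd2 on 1387476_at (0.921), Kcna1 (0.817), Kcnd3 on 1369144_a_at (0.578) and Kcnc2 on 1370559_at (0.562). The lowest of the 9 values was on 1 h array 3 or 6 h array 1 in 20 members (29.9%; 24.9% of all tested). The highest value was on 1 of those arrays in 21 members (31.3%; 38.1% of all tested). Only control 1 and control 2 held the lowest value in as few as 2 members each (2.99%). The shares of all tested were 6.19% for control 1 and 12.3% for control 2.

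The beta-actin ratio of 3' to 5' signal, which grows as RNA is less complete, varied among the arrays. Its log2 value was 1.38, 2.13 and 2.00 after 1 h and 2.55, 1.90 and 1.02 after 6 h, against 1.36, 1.26 and 1.41 in controls. The means were 1.84 ± 0.40, 1.82 ± 0.77 and 1.35 ± 0.08 (SD, n = 3 each), and an exact 2-sided permutation test gave p = 0.2 for 1 h and p = 0.4 for 6 h against control, where 0.1 is the smallest p that 3 arrays against 3 allow. The same ratio of Gapdh was also highest on 6 h array 1 (0.46), but its group means lay close together, at 0.11 ± 0.04 after 1 h, 0.19 ± 0.23 after 6 h and 0.13 ± 0.11 in controls (SD, n = 3 each; exact permutation p = 0.8 for either time against control). With the beta-actin ratio as a covariate, the 1 h differences of Kcnc2 were -0.32 on 1370559_at and -0.21 on 1370557_a_at. Those of Kcnj3 (1369741_at) were -0.20 after 1 h and -0.12 after 6 h, and those of Kcne4 0.19 and 0.05. Such values nearer 0 were also given above for Kcna2, Kcnd2, Kcnq3, Kcnip2, Kcnip3 and Kcnj9, while Kcna4 lay further below 0, at -0.65 after 1 h and -0.50 after 6 h. Others also moved away from 0. Kcnj4 on 1369487_a_at went from 0.76 to 0.92 after 1 h. After 6 h, Kcnj16 on 1370076_at went from 0.25 to 0.31 and Kcnip1 on 1370781_a_at from 0.14 to 0.18.

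Genes that work with these channels were counted from a list of 36, of which 25 had 38 tested probe sets. Below control were 23 of the 38 after 1 h (44.7% of all tested) and 26 after 6 h (46.2% of all tested). Their medians were -0.05 and -0.09, with 0 past the adjusted threshold by limma's test. At an unadjusted p of 0.05, 1 was higher and 5 lower after 1 h, beside 6.7% and 4.64% of all tested. After 6 h 0 were higher and 4 lower, beside 2.8% and 1.46% of all tested. All of these were among the channel partners. The higher one was Vapb on 1390257_at, at 0.43 ± 0.11 after 1 h and 0.19 ± 0.11 after 6 h. On 1369597_at Vapb was at 0.22 ± 0.27 and -0.26 ± 0.27. Dlg4, the scaffold that clusters Kcna channels and glutamate receptors, was at -0.83 ± 0.16 after 1 h and -0.57 ± 0.16 after 6 h on 1387210_at and at -1.44 ± 0.39 and -1.16 ± 0.39 on 1371183_a_at, but at 0.13 ± 0.12 and 0.20 ± 0.12 on 1395468_at. Ank3, which anchors KCNQ channels at the axon initial segment, was at -0.97 ± 0.30 and -0.56 ± 0.30 on 1370638_at and at -0.72 ± 0.19 and -0.88 ± 0.19 on 1371132_a_at. Dpp6, an auxiliary protein of Kcnd channels, was at -0.51 ± 0.21 and -0.48 ± 0.21 on 1369390_a_at and at -0.01 ± 0.25 and -0.10 ± 0.25 on 1376183_at. The pacemaker channel genes Hcn2 and Hcn3, the 5 probe sets of the sodium-potassium pump and the 4 of potassium-chloride cotransporters had none at an unadjusted p of 0.05 in either comparison with control.

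Markers of excitatory neurons lay below control together with the voltage-gated alpha subunits. All 10 tested probe sets of 6 such genes were below control at both times, beside 44.7% of all tested after 1 h and 46.2% after 6 h. Their medians were -0.40 after 1 h and -0.32 after 6 h. Their summed signal, as log2, was 12.33 to 12.62 after 1 h and 12.26 to 12.55 after 6 h, against 12.70 to 12.88 in controls, so the ranges did not overlap. Of these probe sets, 4 were below control at an unadjusted p of 0.05 at each time and 0 at the adjusted threshold by limma's test. Of all tested, 4.64% were lower at that unadjusted p after 1 h and 1.46% after 6 h. Those after 1 h were Tbr1 and Camk2a on 1368935_at, 1381637_at and 1388187_at, so most were probe sets of 1 gene. Those after 6 h were Tbr1, Neurod6, Camk2a on 1381637_at and Slc17a7 on 1368986_at. General neuron markers had 9 of 10 probe sets below control at both times (summed log2 14.40 to 14.43 after 1 h, 14.34 to 14.47 after 6 h and 14.48 to 14.51 in controls). Interneuron markers had 3 of 7 below control after 1 h and 2 of 7 after 6 h, and their summed ranges, given with Kcnip1, lay above those of controls at both times. At an unadjusted p of 0.05, 3 were higher after 1 h, Sst (0.38 ± 0.07), Pvalb (0.65 ± 0.13) and Vip (0.32 ± 0.10), and 1 lower, Gad2 (-1.30 ± 0.51). After 6 h 1 was higher, Sst (0.24 ± 0.07), and 0 passed the adjusted threshold by limma's test at either time. Of all tested, 6.7% were higher at that unadjusted p after 1 h and 2.8% after 6 h. Astrocyte markers had 8 of 13 probe sets below control after 1 h and 7 of 13 after 6 h (summed log2 14.14 to 14.21, 14.14 to 14.29 and 14.21 to 14.27). Oligodendrocyte markers had 9 of 11 below control after 1 h and 7 of 11 after 6 h, and microglia markers 4 of 7 and 3 of 7. In this bulk RNA, fewer cells of a type and less RNA per cell cannot be told apart, and the part of cell makeup in the channel values was not tested.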

How the data were processed

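RNA from 9 samples (3 after 1 h of ketone bodies, 3 after 6 h, 3 controls) was measured on rat arrays, grouped and numbered as the labels give them. The values deposited by the authors are linear signal intensity for 31099 probe sets, in 1 column for each array; the program that made them is not given in the sources read. That the scale is linear was judged from the values, of which 0 are at or below 0. Depth does not apply.

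Values were taken as log2(signal + 16) and quantile-normalized over all arrays, since array medians spanned 0.206 on that scale, over a limit of 0.2. After removal of 57 control probe sets, those with a mean at or above the 40th percentile (18625 in number) were tested. A single limma model (version 3.58.1, R 4.3.3) held all arrays and the 3 group means, leaving 6 residual degrees of freedom; variances were moderated with a trend on intensity, and p-values were adjusted by Benjamini-Hochberg over every tested probe set at a threshold of 0.05. The fit was tested on simulated data for the comparison of 1 h with control, on probe sets already filtered. The filter itself was not tested. Gene names come from the platform annotation, and all 122 member probe sets matched a rat gene table through their Entrez numbers, with 0 symbols changed.

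Members and lists were chosen with earlier results of these data known. Genes named with values are, per comparison, the 8 probe sets with the smallest p in each direction, the 1 with the smallest F-test p in each class, other probe sets of those genes, and tested members of a list of 34 channels known in hippocampal cells. Of that list 28 were tested, Kcnj10 and Kcnk9 fell under the filter, and the others were not analysed here. Other members are named to account for their class. RNA quality was read from the log2 ratios of 3' to 5' beta-actin and Gapdh control probe sets, and the beta-actin ratio served as the covariate. Promoter windows come from RefSeq, build GRCr8, and figures were drawn with matplotlib 3.10.9. Alternatives tried were no normalization, median centring, pseudocounts of 1 and 64, the 60th percentile or no filter, variances without the trend, array weights, the replicate number as a block, the 3'/5' ratio as a covariate, only the groups compared, and each array left out in turn. Leaving out 1 h array 3 and 6 h array 1 together was chosen after seeing the data.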

Additional observations from a re-analysis of the deposited data

How the results depend on the processing

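No potassium channel probe set passed the adjusted threshold in any setting tried. Of the differences of named probe sets under the alternatives, 975 kept their sign and 3 did not: Kcnab1 (1378738_at) at 6 h against control was -0.029 without control 2 (-0.029 to 0.24 over the arrays left out), and Kcnq5 (1391314_at) at 6 h against 1 h was -0.040 without 1 h array 3 (-0.040 to 0.41) and -0.10 without both 1 h array 3 and 6 h array 1. These differences were chosen for a small p in the main fit and were refitted on largely the same arrays. A kept sign was therefore likely in advance and is no separate support. The counts at an unadjusted p of 0.05 moved more, and the cause was not tested. Members tested numbered 67 in the main fit, 38 with the 60th percentile filter and 122 with no filter. Counts under those filters therefore cannot be set directly against the main ones. With the 60th percentile filter, 7.73% of all tested were higher after 1 h and 1.27% lower after 6 h. With no filter, 2.04% of all tested were lower at 6 h against 1 h. Percentages in brackets are the shares of all tested in the same setting. Members higher after 1 h numbered 1 as deposited (5.88%) and without both arrays (5.4%). They numbered 2 with the 60th percentile (7.73%), the replicate block (6.34%) and the 3'/5' covariate (4.39%). Members lower after 1 h numbered 2 with median centring (2.68%), 7 with the block (5.26%) and 8 with only the compared groups (6.86%). Members higher after 6 h numbered 0 as deposited (2.1%), with a pseudocount of 64 (2.71%), array weights (3.48%) and the block (2.74%). They also numbered 0 with the covariate (1.81%), only the compared groups (2.15%) and without both arrays (2.82%), and 1 with median centring (3.91%). Members lower after 6 h numbered 3 with the 60th percentile (1.27%), no trend (1.58%) and the block (1.66%), and 2 with the covariate (1.35%). Between 6 h and 1 h, members higher numbered 2 as deposited (1.5%), with no trend (1.37%), the covariate (1.58%) and without both arrays (2.5%). They numbered 0 with the 60th percentile (1.26%), array weights (3.38%) and the block (1.49%). Members lower numbered 4 with no filter (2.04%), 5 with array weights (3.57%) and 0 with only the compared groups (1.09%). They numbered 1 as deposited (1.33%), with median centring (1.27%), the 60th percentile (1.54%) and the block (1.41%). Leaving out each array gave 1 to 4 members higher (4.03% to 7.93%) and 2 to 9 lower (2.35% to 7%) after 1 h. After 6 h it gave 0 to 1 higher (1.84% to 3.96%) and 2 to 10 lower (0.956% to 4.65%). At 6 h against 1 h it gave 0 to 2 higher (1.09% to 4.22%) and 0 to 5 lower (0.934% to 4.21%). In the same order, the median difference of the members ran from -0.06 to 0.03, from -0.091 to 0.0028 and from -0.080 to 0.010. Same-numbered arrays did not all deviate together (correlations of deviations from group means from -0.36 to 0.54), so the numbers are not read as pairs. The 3 arrays per group and the spread between them limit which differences could be detected.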
